A study of Mus musculus with 29 samples.

Results

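The B-cell receptor is carried by B lymphocytes and pairs a membrane antibody with a signaling heterodimer, while coreceptors on the same membrane raise or lower the signal that follows binding of antigen. The genes described here are those of the receptor complex and its coreceptors, chosen by name: Cd79a, Cd79b, Cd22, Ms4a1, Cr2, Fcer2a, Blnk, Btk and Cd37. All 9 were among the 13982 genes listed for 14 RNA libraries of (NZB×NZW)F1 mice, a cross that develops a lupus-like disease with anti-dsDNA antibodies and nephritis. Tertiary lymphoid structures (TLS) are aggregates of lymphocytes that form outside lymphoid organs, in these mice within the kidney.

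Of the 14 libraries, 10 came from proteinuric mice, which are mice with established nephritis, and were 4 of kidney, 3 of TLS and 3 of renal draining lymph node. The kidney mice were H6, H20, H115 and H117, aged 39, 36, 25 and 32 weeks. Mice H6, H20 and H115 also gave TLS, cut out by hand under a loupe from the same kidney, and mice H6, H20 and H117 also gave lymph nodes. The other 4 libraries were lymph nodes, 3 from anti-dsDNA antibody-positive mice (D10, D11 and L25, aged 28, 29 and 18 weeks) and 1 from a mouse labelled young (C45, aged 4 weeks). All mice were of the same strain, and no group carried an introduced allele or was given an agent in the labels. The antibody-positive lymph nodes had their RNA purified with another kit (miRNeasy) than the other tissues (TRIzol), so kit, age and disease stage cannot be told apart in that comparison.

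Values are read numbers to which 1 was added before scaling by a size factor of the library, so a gene without a read is listed at about 1 and not at 0. Depth was modest, at 343825 to 443379 reads per library. The share of ribosomal RNA was 55.6% in kidney of H117, 31.8% in lymph node of H6 and 21.3% in TLS of H115, and at most 5.33% in each other library. The labelled tissues were checked with 10 tubule markers. Their summed value was 7764 to 21797 in kidney, 2556 to 8651 in TLS and 10.5 to 21.8 in lymph nodes of proteinuric mice, where 1 or 2 of the 10 had a read. TLS libraries therefore held kidney RNA, and each TLS value below is that of a mixed piece of tissue. In such bulk tissue, fewer B cells, less RNA per B cell and reads from other cells cannot be told apart.

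Cd79a and Cd79b encode the CD79 heterodimer, the part of the receptor that carries the signaling motifs. The gene Cd79a (ENSMUSG00000003379) lies on chromosome 7 at 24897381 to 24902197, plus strand (GRCm38), and Cd79b (ENSMUSG00000040592) on chromosome 11 at 106311341 to 106314762, minus strand. In kidney tissue Cd79a was at 4.42 (H6), 9.28 (H20), 1.16 (H115) and 8.87 (H117), which corresponds to 4, 10, 0 and 4 reads. In TLS it was at 221 (H6), 149 (H20) and 145 (H115), and in lymph nodes of proteinuric mice at 251 (H6), 395 (H20) and 263 (H117). Thus the 3 tissues did not overlap, with kidney lowest and lymph node highest. Cd79b followed the same order, at 3.54, 10.1, 1.16 and 8.87 in kidney (H6, H20, H115 and H117), 156, 99.0 and 108 in TLS (H6, H20 and H115) and 220.3, 267 and 227 in lymph node (H6, H20 and H117). Again no library of one tissue reached the range of the next.

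Cd22, Ms4a1, Cr2 and Fcer2a encode membrane proteins of the B cell. CD22 is an inhibitory lectin that recruits the phosphatase SHP-1, and the gene (ENSMUSG00000030577) spans 30865402 to 30880342 of chromosome 7, minus strand. Cd22 was at 1.77, 3.37, 1.16 and 3.55 in kidney (H6, H20, H115 and H117), at 30.5, 24.4 and 14.2 in TLS (H6, H20 and H115) and at 30.4, 83.4 and 79.3 in lymph node (H6, H20 and H117). Kidney stood apart from both other tissues, whereas the lymph node of H6 was level with the TLS of the same mouse.

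Ms4a1 encodes CD20, a membrane protein of B cells lost in plasma cells (ENSMUSG00000024673, chromosome 19, 11249675 to 11266241, minus strand). Not a single Ms4a1 read was found in kidney tissue. The value was 6.78 (H6), 18.1 (H20) and 28.3 (H115) in TLS and 42.0 (H6), 16.1 (H20) and 29.9 (H117) in lymph node, and these ranges overlapped. Cr2 encodes complement receptors CD21 and CD35, which bind complement-coated antigen (ENSMUSG00000026616, chromosome 1, 195136811 to 195176716, minus strand). The paper stained CD21 to detect follicular dendritic cells in TLS, and which cells gave the Cr2 reads was not tested here. Cr2 was the member with the fewest reads, 0 in kidney, 1, 4 and 1 in TLS (H6, H20 and H115) and 2, 6 and 9 in lymph node (H6, H20 and H117). Fcer2a encodes CD23, the low-affinity IgE receptor of mature B cells (ENSMUSG00000005540, chromosome 8, 3681737 to 3694175, minus strand). Fcer2a had no read in kidney and was at 16.96, 13.4 and 5.45 in TLS (H6, H20 and H115) and at 20.3, 39.8 and 43.7 in lymph node (H6, H20 and H117). Here every lymph node was above every TLS.

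Blnk encodes the adaptor that links the kinase SYK to phospholipase C-γ2, Btk encodes the kinase that activates this phospholipase, and Cd37 encodes a tetraspanin of lymphocytes. Blnk (ENSMUSG00000061132, chromosome 19, 40928927 to 40994535, minus strand) was at 4.42, 4.22, 3.48 and 1.77 in kidney (H6, H20, H115 and H117), 22.9, 10.2 and 13.1 in TLS (H6, H20 and H115) and 17.4, 22.7 and 23.5 in lymph node (H6, H20 and H117). It was the only member with reads in the kidney of H115, which had 2. Btk (ENSMUSG00000031264, chromosome X, 134542336 to 134583570, minus strand) had no read in kidney or in the TLS of H115, and was at 7.63 and 7.07 in the TLS of H6 and H20 and at 13.04, 15.2 and 20.2 in lymph node (H6, H20 and H117). Cd37 (ENSMUSG00000030798, chromosome 7, 45233632 to 45239115, minus strand) was at 1.77, 4.22, 1.16 and 3.55 in kidney (H6, H20, H115 and H117), 71.2, 33.8 and 40.3 in TLS (H6, H20 and H115) and 43.5, 109 and 89.0 in lymph node (H6, H20 and H117). Its exons overlap Tead2 on the other strand, and whether the counting used strand is not given in the sources used here. Tead2 had 3 reads or fewer in each of the 14 libraries. Cd22 and Ms4a1 also have exons that overlap antisense genes (Gm29439 and 4930526L06Rik), for which no value was used here, so reads of either strand cannot be told apart for these members.

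**Figure D1:**
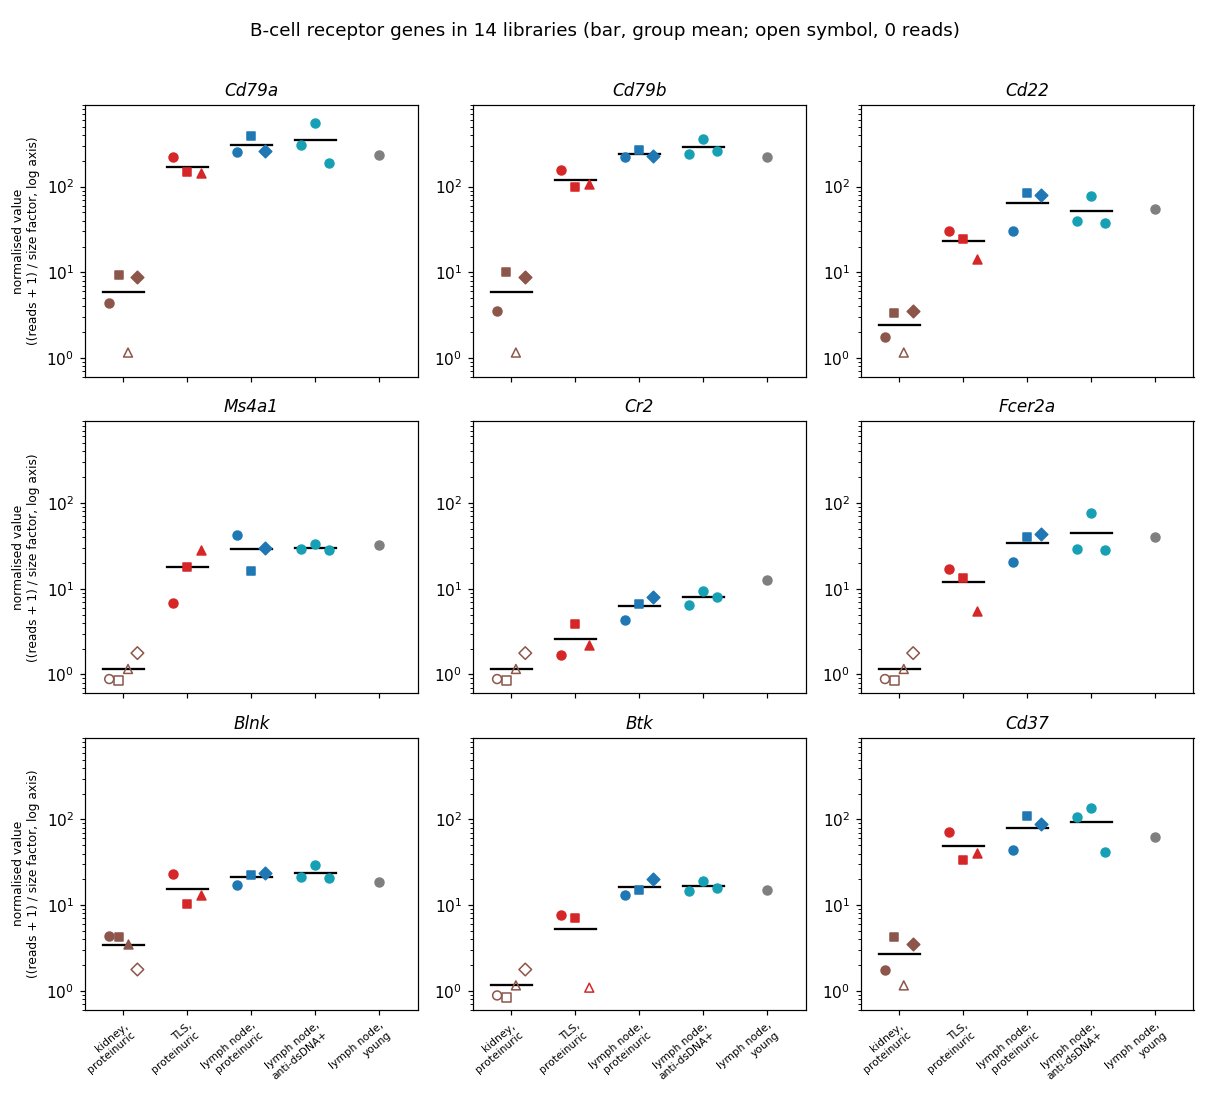
Normalised value, (reads + 1)/size factor, of the 9 genes in each of the 14 libraries on a log axis. Points are libraries (for proteinuric mice circle H6, square H20, triangle H115, diamond H117), bars are group means, and open symbols mark 0 reads. Kidney had the lowest mean for each gene, and Ms4a1, Cr2, Fcer2a and Btk had 0 reads in all 4 kidney libraries.

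The first comparison asks how the TLS differ from the kidney tissue around them. Of the 9 members, 8 passed the filter on low values (a mean of at least 5 over the 10 libraries of proteinuric mice) and were tested, and Cr2 did not pass. By limma on log2(value + 1), 7 of the 8 were higher in TLS at a Benjamini-Hochberg adjusted p under 0.05 over all 7382 genes tested, where 8.62% of genes were called higher in TLS. Cd79a had a logFC of 4.85 (SE 0.50, adjusted p = 9.65e-05) and Cd79b one of 4.38 (SE 0.50, adjusted p = 0.000155). The next were Cd37 at 3.77 (SE 0.43, adjusted p = 0.000152), Ms4a1 at 2.94 (SE 0.45, adjusted p = 0.00105) and Cd22 at 2.80 (SE 0.43, adjusted p = 0.00104). Fcer2a rose by 2.47 (SE 0.40, adjusted p = 0.00142) and Blnk by 1.85 (SE 0.34, adjusted p = 0.00351). The same 7 genes were higher in every TLS than in every kidney library, against 13.4% of genes. Members with no kidney read passed the filter only through the other tissues, so these counts are descriptive.

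Btk did not pass the test (logFC 1.30, SE 0.50, 95% limits 0.22 to 2.38, adjusted p = 0.104, limma). The TLS library without a Btk read, that of H115, was among the 3 with over 20% ribosomal RNA. Without it the Btk logFC was 1.97 (adjusted p = 0.00312), and without the 3 such libraries it was 2.09 (adjusted p = 0.00581). On recovered reads Btk also passed with edgeR's quasi-likelihood test (adjusted p = 0.0431) and with DESeq2 (adjusted p = 0.0111). These were the only 4 of 18 alternative settings in which Btk passed, and in the other 14 it stayed uncalled. The lowest logFC over the 18 was 0.66, and it ranged from 0.94 to 1.97 with each library left out.

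On the log2(value + 1) scale, changes of weakly expressed genes come out too small. The TLS mean without the added read was set against a floor of 3 reads over the 4 kidney libraries together, a level of 0.802. It was 21.0-fold this floor for Ms4a1, 13.7-fold for Fcer2a and 5.44-fold for Btk. For Cr2, with 6 TLS reads in all, the corresponding bound was 2.11-fold. Such bounds cover only the counting error of the kidney zeros. The TLS mean was taken as measured, so its own counting error and the spread between mice are not covered. The median logFC of the 8 tested members was 2.87, or 3.77 with the 3 members without kidney reads set at their bounds, beside −0.01 over all genes tested. Bounds leave out the added read, while the median over all genes keeps log2(value + 1), so only 2.87 is on the same scale as −0.01. The same holds for each median with bounds given below.

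Within mice the direction was the same. The TLS minus kidney difference on the log2(value + 1) scale was positive in 3 of 3 mice for each member but Btk, for which it was positive in 2 of 3. For Cr2 the sign in H6 and in H115 rested on 1 TLS read against 0 kidney reads. The share of all genes with 3 positive mice was not counted. For Cd79a it was 5.36 in H6, 3.86 in H20 and 6.08 in H115. With the mouse as a replicate block, the paired fit called the same number, 7 of 8. Without the block 8.62% of all genes were called higher in TLS.

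The second comparison sets the lymph node against kidney tissue of the same group of mice. All 8 tested members were called higher in lymph node (limma), against 20.8% of genes. Again the largest logFC were those of Cd79a, at 5.66 (SE 0.50, adjusted p = 2.90e-06), and Cd79b, at 5.38 (SE 0.50, adjusted p = 4.23e-06). Cd37 was higher by 4.46, Cd22 by 4.18, Fcer2a by 3.99, Ms4a1 by 3.73 and Btk by 2.98 (adjusted p from 5.09e-06 for Cd37 to 0.000363 for Btk). Blnk had the smallest difference, 2.35 (SE 0.34, adjusted p = 0.000138). For these 8 genes each lymph node library was above each kidney library, against 23.3% of genes. Ms4a1, Fcer2a and Btk had no kidney read and passed the filter only through the other tissues, so these counts are descriptive as well. For members without a kidney read, the bound was 41.8-fold for Fcer2a, 35.3-fold for Ms4a1, 18.8-fold for Btk and 6.60-fold for Cr2. Here too the lymph node mean was taken as measured. This comparison and the first share the 4 kidney libraries.

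**Figure D2:**
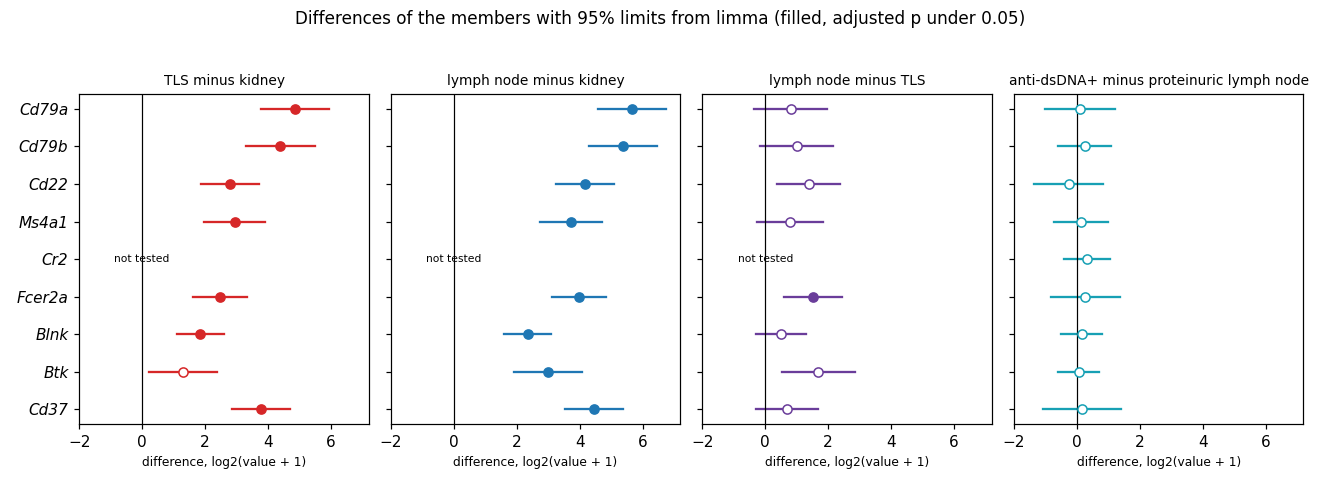
Differences on the log2(value + 1) scale with 95% limits from limma for the 4 comparisons, 1 gene per row. Filled points passed an adjusted p under 0.05, and Cr2 was tested only among lymph nodes. In lymph node minus TLS Fcer2a alone was filled, and in antibody-positive minus proteinuric lymph node all limits crossed 0.

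The third comparison asks whether TLS resemble the draining lymph node. Each of the 8 members had a higher mean in lymph node, with logFC from 0.50 (Blnk) to 1.68 (Btk), but only Fcer2a passed the test (logFC 1.51, SE 0.43, 95% limits 0.59 to 2.44, adjusted p = 0.0391, limma), where 1.69% of genes were called higher in lymph node. This call rested on few libraries. With the mouse as a replicate block the paired logFC of Fcer2a was 1.19 (adjusted p = 0.180), and the call was also lost with edgeR (adjusted p = 0.115), with DESeq2 (adjusted p = 0.114) and without any one of kidney H6, TLS H20, TLS H115, lymph node H20 or lymph node H117 (adjusted p from 0.0512 to 0.168).

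For Cd79a, Cd79b, Fcer2a and Btk every lymph node was above every TLS, as for 9.48% of genes. Btk, at 1.68 (SE 0.53, adjusted p = 0.0652), and Cd22, at 1.38 (SE 0.46, adjusted p = 0.0792), lay near the threshold. Btk passed without TLS H6 (logFC 2.04, adjusted p = 0.0414), and Cd22 passed without lymph node H6 (logFC 1.84, adjusted p = 0.0237). Without TLS H115, which had no Btk read, the Btk logFC was 1.02 (adjusted p = 0.181) and that of Cd22 1.08 (adjusted p = 0.297). The limits of the other members were wide, from −0.35 to 1.97 for Cd79a and from −0.30 to 1.30 for Blnk, so these data neither show nor exclude a difference of 1 on the log2 scale.

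Kidney markers moved with this comparison. Of the 10 tubule markers, 9 were lower in lymph node than in TLS, against 8.87% of genes called in that direction, and their summed level ranged from 2556 to 8651 in TLS and from 10.5 to 21.8 in lymph node. The part of this kidney RNA in the members' differences was not tested. Between kidney and TLS, 3 of the 10 were lower in TLS, against 6.07% of genes.

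Mice H6 and H20 had both TLS and lymph node. In H20 the lymph node was above the TLS for 8 of the 9 members, with Ms4a1 as the exception at −0.16 on the log2(value + 1) scale. In H6 the lymph node was above the TLS for 6 of the 9, by 0.18 (Cd79a) to 0.99 (Cr2) for 5 of them and by 2.47 for Ms4a1. The other 3 were at −0.004 (Cd22), −0.38 (Blnk) and −0.70 (Cd37). The lymph node of H6, with 31.8% ribosomal RNA, was the lowest of its group for 8 of the 9 members and the highest for Ms4a1. The part of ribosomal RNA in these values was not tested.

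Expressed relative to leukocyte transcripts of the same library, the size factor cancels. Per read of 6 pan-leukocyte genes (Ptprc, Laptm5, Coro1a, Cd52, Cd53 and Rac2) there were 0.74 (H6), 0.91 (H20) and 0.74 (H115) reads of the 9 members in TLS and 0.61 (H6), 0.91 (H20) and 0.72 (H117) in lymph node, so both tissues overlapped. In kidney the ratio was 0.15 (H6), 0.29 (H20), 0.059 (H115) and 0.45 (H117), below each TLS and lymph node, from only 2 to 32 member reads per library. Per read of 10 T-cell genes the ratio was 1.79, 2.04 and 2.75 in TLS (H6, H20 and H115) and 1.13, 1.76 and 1.57 in lymph node (H6, H20 and H117). Here TLS and lymph node did not overlap, with TLS higher, although the lowest TLS and the highest lymph node were close. These ratios are descriptions, chosen after the values were seen, and were not tested.

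**Figure D3:**
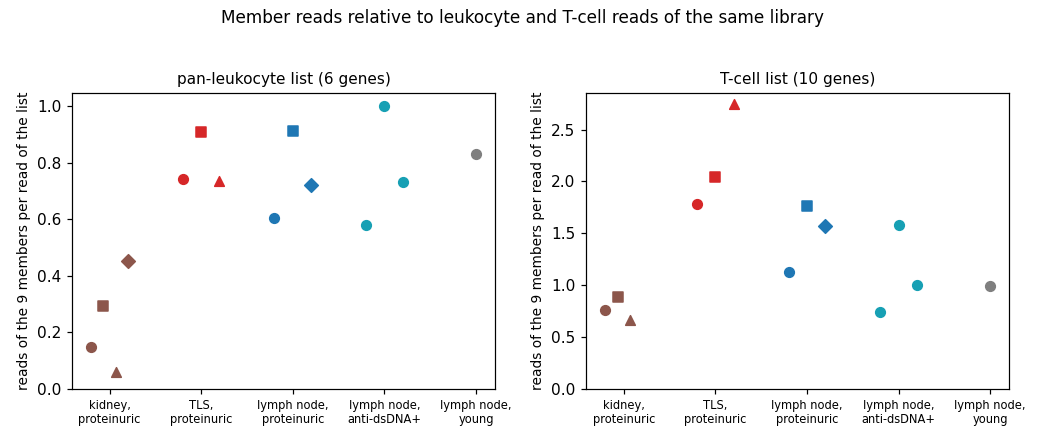
Reads of the 9 members per read of 6 pan-leukocyte genes (left) and of 10 T-cell genes (right) in each library, on linear axes from 0. Symbols are as in the plot of values by library, and kidney of H117 had no T-cell read and is absent on the right. TLS and proteinuric lymph node overlapped on the left (0.61 to 0.91), while TLS was higher on the right (1.79 to 2.75 against 1.13 to 1.76).

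The fourth comparison asks whether lymph nodes differ between antibody-positive mice and proteinuric mice. All 9 members passed the filter among these 6 libraries, and none was called by limma, with logFC from −0.26 (Cd22) to 0.31 (Cr2) and adjusted p = 0.998 for each. Over all 6810 genes tested the count was also 0 (0%), while 215 genes (3.16%), none of them a member, had an unadjusted p under 0.05. The edgeR test called 0 genes and DESeq2 13, again without a member. Limits were narrowest for Btk, −0.59 to 0.70, and Blnk, −0.50 to 0.80, and widest for Cd37, −1.06 to 1.39. No member was higher in every antibody-positive library, against 6.08% of genes.

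Compared with proteinuric lymph nodes, the SD among the antibody-positive mice was larger for 5 members (Cd79a, Cd79b, Fcer2a, Blnk and Cd37) and smaller for 4 (Cd22, Ms4a1, Cr2 and Btk). Cd79a was at 302 (D10), 560.3 (D11) and 189 (L25), and Cd79b at 237, 361 and 264, respectively. D11 was the highest of the 3 for all 9 members, and L25 the lowest for 6. For Fcer2a the values were 28.7 (D10), 77.1 (D11) and 28.7 (L25), so D11 stood apart from the other 2. Cr2 was at 6.49 (D10), 9.51 (D11) and 8.03 (L25). The library labelled young (C45) had no replicate. It was within the range of the other 6 lymph nodes for each member but Cr2, which was higher than in each of them at 12.5, from 13 reads.

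The balance of Cd79a and Cd79b, which are needed in equal numbers for the heterodimer, was compared within libraries. Cd79a made up 57.4% to 60.1% of the reads of the pair in TLS, and 53.3% (H6), 59.7% (H20) and 53.7% (H117) in lymph node of proteinuric mice. In L25 the share was 41.7% (95% Wilson interval 37.0 to 46.7; 164 and 229 reads), against 56.0% in D10, 60.9% in D11 and 50.9% (46.6 to 55.2) in the library labelled young. The interval of L25 lay below those of each TLS and each other lymph node except C45, which it met at its end. Intervals cover counting error only, and the RNA kit was the same in D10, D11 and L25.

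**Figure D4:**
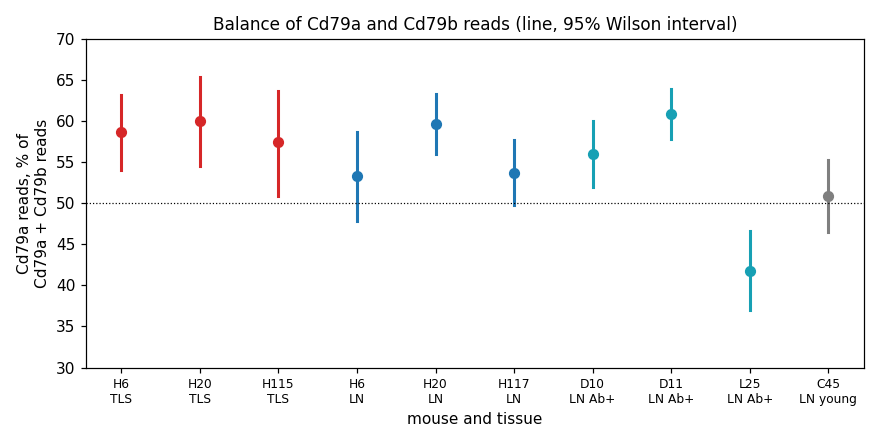
Cd79a reads as a percentage of Cd79a plus Cd79b reads, by mouse and tissue, with 95% Wilson intervals (counting error only) and a dotted line at equal shares. Kidney is left out, as it had at most 21 reads of the pair. The antibody-positive library L25 was lowest at 41.7%, and the other 9 were between 50.9% and 60.9%.

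Ms4a1 did not keep its proportion to the other members. It made up 1.13% of the reads of the 9 genes in TLS of H6 (95% Wilson interval 0.55 to 2.30) and 7.84% in TLS of H115 (5.36 to 11.3). In lymph node of proteinuric mice the share was 6.45% in H6 (4.50 to 9.17), 1.60% in H20 (0.99 to 2.59) and 3.75% in H117. The pair of high shares came from libraries with over 20% ribosomal RNA, TLS of H115 and lymph node of H6, while the low pair had 1.91% and 2.94%. TLS of H20, with 1.77% ribosomal RNA, had a share of 4.92% (3.27 to 7.34), which overlapped both high libraries. The lymph nodes of D10, D11, L25 and C45, with at most 5.33% ribosomal RNA, had shares from 2.50% (D11) to 4.58% (C45). A link with ribosomal RNA was not tested. Over the 10 libraries outside kidney, the correlation of log2(value + 1) with the mean of the other members was 0.22 for Ms4a1 and 0.73 to 0.96 for each other member. That is a description, since these libraries share mice and depth. Fcer2a went the other way in TLS of H115, with 1.25% of member reads (0.49 to 3.18) beside 3.05% and 3.58% in TLS of H6 and H20.

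Levels between genes were compared per kilobase of annotated exon (GENCODE M21, all exons of a gene merged). In lymph node of proteinuric mice Cd79a had 207 normalised reads per kilobase (range 171 to 270.5) and Cd79b 166 (153 to 186). Cd37 followed at 22.5 (11.9 to 30.7), then Cd22 at 12.6 (5.75 to 16.3) and Fcer2a at 10.8 (6.09 to 13.9), each overlapping the next. Btk (4.79), Ms4a1 (4.57) and Blnk (3.36) came next, and their ranges overlapped. Cr2 was last at 0.65 (0.36 to 0.90), below every other member. In TLS the order was Cd79a (117.2), Cd79b (83.9), Cd37 (13.5), Cd22 (4.39), Fcer2a (3.56), Ms4a1 (2.72), Blnk (2.42), Btk (1.38) and Cr2 (0.21). From Cd22 to Btk, each neighbor in this TLS order overlapped the next.

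**Figure D5:**
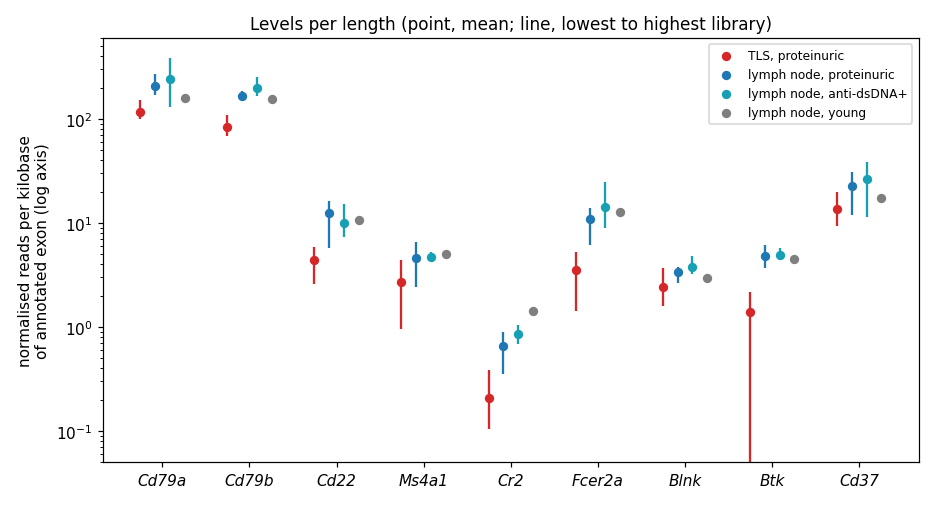
Normalised reads per kilobase of annotated exon on a log axis for the 9 genes in TLS and in the 3 kinds of lymph node library. Points are group means and lines run from the lowest to the highest library (Btk in TLS reaches 0, below the axis). Cd79a and Cd79b were highest and Cr2 lowest in each group.

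Promoters of 7 of the 9 members were found in RefSeq sequences of GRCm38.p6 (9 windows, each from 250 bases before to 50 after an annotated start). Since the members moved together between kidney and TLS, the windows were searched on both strands for letters known from B-cell and myeloid factors, namely the octamer ATGCAAAT, the palindromic EBF1-type CCCNNGGG and the PU.1-type GAGGAA. The octamer was found in the window of Blnk and in 1.74% of all 32851 windows, and the EBF1-type letters in that of Cd22 and in 13.7% of all. The PU.1-type letters were found in those of Cd79a, Btk and Cd37 and in 28.3% of all. None of these exact letters was shared by most members. Sites that differ from the letters were not searched, and a match is only a description. For 3 members that moved together, one for each kind of letters, the window is printed 5′ to 3′ with the match in capitals.
Cd79a, chr7:24897247-24897546, plus strand: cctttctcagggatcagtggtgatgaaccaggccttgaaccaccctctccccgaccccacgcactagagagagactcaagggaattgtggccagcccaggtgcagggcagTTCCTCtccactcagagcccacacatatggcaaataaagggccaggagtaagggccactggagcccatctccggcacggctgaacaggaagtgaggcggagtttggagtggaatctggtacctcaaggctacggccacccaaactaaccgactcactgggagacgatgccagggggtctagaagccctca
Cd22, chr7:30878979-30879278, minus strand: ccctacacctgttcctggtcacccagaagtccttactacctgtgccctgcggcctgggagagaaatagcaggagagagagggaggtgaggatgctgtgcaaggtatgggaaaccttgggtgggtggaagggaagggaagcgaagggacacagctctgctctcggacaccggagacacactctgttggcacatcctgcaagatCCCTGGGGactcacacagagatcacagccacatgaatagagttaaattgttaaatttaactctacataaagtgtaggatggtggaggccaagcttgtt
Blnk, chr19:40994172-40994471, minus strand: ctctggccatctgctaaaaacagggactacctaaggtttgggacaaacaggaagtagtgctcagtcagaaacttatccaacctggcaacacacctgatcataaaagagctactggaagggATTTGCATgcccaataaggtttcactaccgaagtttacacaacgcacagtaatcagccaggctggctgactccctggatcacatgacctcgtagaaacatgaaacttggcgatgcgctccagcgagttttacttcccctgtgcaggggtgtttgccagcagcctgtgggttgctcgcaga
Relative to the RefSeq start, the match began at −140 in Cd79a, at −48 in Cd22 and at −130 in Blnk. The GENCODE M21 spans of Cd22 and Blnk reach to 30880342 and 40994535 on the minus strand. Both windows therefore lie inside the gene by that annotation, downstream of its outermost start. The GENCODE M21 span of Cd79a begins at 24897381, within its window and upstream of the RefSeq start. The offset of its match therefore also differs between the 2 annotations.

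Other genes of B-cell receptor signaling were described with a list of 28, of which 25 passed the filter in the proteinuric mice. Between kidney and TLS, 22 were called higher in TLS and none lower (limma), against 8.62% of genes called higher in TLS. The median logFC was 1.81, or 2.04 with the 4 genes without kidney reads at their bound. Those 4 genes passed the filter only through the other tissues, so this count is descriptive. Among the kinases called were Blk at 2.78 (SE 0.35, adjusted p = 0.000297), Syk at 2.66 (SE 0.36, adjusted p = 0.000501) and Lyn at 1.74 (SE 0.47, adjusted p = 0.0271). Bcl10, Dapp1 and Cd81 did not pass, at 0.57, 1.00 and −0.36.

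In lymph node 24 of the 25 were called higher than in kidney, against 20.8% of genes, with a median logFC of 2.85 (3.40 with bounds). The 4 genes without kidney reads are among those tested, so this count is descriptive too. Cd81, a tetraspanin that many cell types carry, was the exception and was lower in lymph node (logFC −1.13, SE 0.37, adjusted p = 0.0273), as were 23.0% of genes. Mean Cd81 was 95.7 in kidney, 71.5 in TLS and 41.6 in lymph node. Between lymph node and TLS 3 of the 25 were called, each higher in lymph node, against 1.69% of genes. Among them were Ptprcap (logFC 2.00, adjusted p = 0.0295) and Fyn (logFC 1.49, adjusted p = 0.0463). Fyn and Ptprcap are also expressed in T cells. Of the 10 T-cell markers, 5 were called higher in lymph node than in TLS and none lower, against 1.69% of genes called higher. Their summed level was 503 to 572 in lymph node and 137 to 304 in TLS. The part of T cells in these genes was not tested. In antibody-positive against proteinuric lymph nodes all 28 passed the filter and none was called.

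The 10 genes whose pattern over the 14 libraries was most like that of the members, by Pearson correlation of log2(value + 1) with the mean of the standardized members, were Il21r, Tnfrsf13b, Blk, Pou2af1, Glycam1, Lax1, Tbc1d10c, Ncf1, Cd180 and Cd86. Their correlation was 0.990 for Il21r to 0.986 for Cd86, among 7157 genes, with antibody and T-cell receptor segments left out. Each of the 10 had its lowest group mean in kidney, as the members did, and the libraries share mice and depth. Il21r, the IL-21 receptor, was at 1.60 in kidney, 19.0 in TLS and 55.7 in lymph node of proteinuric mice on average. Tnfrsf13b, which encodes TACI, a receptor for the B-cell survival factor BAFF, was at 1.60, 10.1 and 22.1, respectively. Pou2af1, a coactivator at octamer sites, was at 1.38, 49.0 and 104, and Glycam1, a ligand for L-selectin on high endothelial venules, at 2.43, 183 and 1688.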

How the data were processed

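Polyadenylated RNA of 14 libraries was sequenced on an Ion Torrent PGM. The authors used CLC Genomics Workbench with GRCm38 as reference, and deposited 1 signal for each gene in each library. Strand and multi-mapping settings are not given in the sources used here. In the deposited signal, 1 was added to each read number before division by a DESeq-type size factor: 100% of values were whole multiples of the lowest value of their library (tolerance 0.001), and reads were recovered on that basis. The 15 whole kidneys were not analysed here.

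Members were tested with limma 3.58.1 (trend, robust; R 4.3.3) on log2(value + 1) over all genes with a mean of at least 5, fitting the 10 proteinuric libraries together and 6 lymph nodes apart. The threshold for a call was 0.05 after Benjamini-Hochberg adjustment. The 3 tissues of proteinuric mice came partly from the same animals, named by mouse number. The deviations of the 8 pairs of libraries from one mouse had a median correlation across genes of 0.114 (−0.335 to 0.454), and those of 25 pairs of different mice one of 0.0353. The 3 kidney and TLS pairs of one mouse were at 0.351, 0.364 and 0.454, while pairs with lymph node ran from −0.335 to 0.202. The paired fit had the mouse as a replicate block. Alternatives were pseudocounts of 0.5 and 5, means of at least 1 and 10, edgeR 4.0.16, DESeq2 1.42.0, scaling to reads outside ribosomal RNA, only the 2 groups compared, all 7 lymph nodes, each library left out and, chosen after seeing the data, the 3 libraries with over 20% ribosomal RNA left out. The tests were tried on simulated data.

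Named were the 9 members, genes of a B-cell receptor signaling list (some of its results are not reported here) and the 10 genes most like the members. Further lists held markers of T, plasma, myeloid, follicular dendritic, germinal center and tubule cells, B-lineage transcription factors and pan-leukocyte genes. The members and lists were chosen with earlier results of these data known. Positions are from GENCODE M21 (GRCm38).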

Additional observations from a re-analysis of the deposited data

How the results depend on the processing

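Kidney versus TLS called 7 or 8 of the tested members and kidney versus lymph node 7 to 9 under every alternative run, all higher outside kidney. In the main fits 8.62% of all genes were called higher in TLS and 20.8% higher in lymph node than in kidney. For the alternatives, counts over all genes are given below only in part, so these member counts are descriptive. Lymph node versus TLS, with 1 called member, called 2 with a pseudocount of 5 or a mean of at least 1, 3 with all 7 lymph nodes and 0 with a mean of at least 10, edgeR, DESeq2, scaling to reads outside ribosomal RNA, the mouse as a replicate block or only the 2 groups compared, and 0 to 2 when each library was left out. The replicate block changed no other call of a member. Cr2, tested with a mean of at least 1, was called between kidney and lymph node (logFC 1.75, adjusted p = 0.000759) and not between kidney and TLS (0.71, adjusted p = 0.231).

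Among all genes, those higher in lymph node than in TLS numbered 125 (655 lower), 37 with edgeR (748 lower), 18 with scaling to reads outside ribosomal RNA (769 lower), 51 with the replicate block (518 lower), 446 with all 7 lymph nodes (834 lower), 31 without TLS H115 and 35 without lymph node H117. Those higher in TLS than in kidney numbered 636 (448 lower), 669 with edgeR (164 lower), 522 with scaling to reads outside ribosomal RNA (279 lower) and 384 without TLS H6 (146 lower). With edgeR, which changes scaling, input and model together, the median logFC of all genes was 0.11 in place of −0.01 in TLS against kidney and −0.14 in place of 0.04 in lymph node against TLS. In antibody-positive against proteinuric lymph nodes 0 genes were called by limma, 8 with a mean of at least 1 and 5 without D11.

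In that comparison the sign of uncalled members changed. The logFC was −0.0821 for Ms4a1 and −0.0728 for Btk with edgeR, −0.0829 for Ms4a1 and −0.0497 for Btk with DESeq2, and −0.0681 for Cd79a, −0.0141 for Ms4a1 and −0.0920 for Btk with scaling to reads outside ribosomal RNA. It was −0.0208 for Cd79a, −0.0589 for Fcer2a, −0.0775 for Btk and −0.220 for Cd37 without lymph node H6, the library of this comparison with over 20% ribosomal RNA. With each library left out, the logFC ranged from −0.309 to 0.472 for Cd79a, −0.228 to 0.438 for Ms4a1, −0.189 to 0.509 for Fcer2a, −0.0027 to 0.244 for Blnk, −0.0775 to 0.221 for Btk and −0.220 to 0.675 for Cd37. The cause was not tested. Depth limits Cr2 and the kidney values, which rest on 0 to 11 reads per gene and library.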

Other observations

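Other lists were read beside the members. Of 7 transcription factors of the B lineage, 5 passed the filter, and Pax5, Pou2af1, Pou2f2, Spib and Ikzf3 were all called higher in TLS than in kidney (limma, adjusted p under 0.05), with a median logFC of 2.39 (3.89 with the 4 genes without kidney reads at their bounds) beside −0.01 over all genes, and all 5 were called higher in lymph node than in kidney. Pax5, Pou2f2, Spib and Ikzf3 had no kidney read and passed the filter only through the other tissues, so these counts are descriptive, beside 8.62% of all genes called higher in TLS and 20.8% in lymph node. Of these, Pou2af1 was also called higher in lymph node than in TLS (logFC 1.10, adjusted p = 0.0477). Of the 6 pan-leukocyte genes, all were called higher in TLS and in lymph node than in kidney and none between lymph node and TLS. Of the 10 T-cell markers, 9 were called higher in TLS than in kidney, and of the 6 tested plasma cell markers, 5. Of the 10 myeloid markers 5 were called higher in TLS than in kidney and 8 in lymph node than in kidney. These counts against kidney stand beside the same 8.62% and 20.8% of all genes. Cd2 and Cd8a of the T-cell list and Tnfrsf17 of the plasma cell list had no kidney read, so the counts of those lists are descriptive. In antibody-positive against proteinuric lymph nodes none of these lists held a called gene.

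Germinal center markers had few reads, with 2 of 7 tested and none called between kidney and TLS. Of the follicular dendritic cell list 4 of 6 were tested, and they went both ways. Cxcl13, the chemokine that draws B cells into follicles, was the 1 called between kidney and TLS (logFC 3.51, adjusted p = 4.61e-05), beside 8.62% of genes called higher in TLS. With a kidney mean of 2.02, Cxcl13 passed the filter only through the other tissues. Mfge8 was at 1.07, Tnfrsf1a at −0.16 and Ltbr at −0.96 (adjusted p = 0.0672). In lymph node against kidney Cxcl13 (logFC 4.37) and Mfge8 (2.98) were called higher and Ltbr lower (−1.70, adjusted p = 0.000978), with Tnfrsf1a at −0.70. Of all genes, 20.8% were called higher and 23.0% lower in lymph node, so the 1 lower of 4 is near that share.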
